A study of Mus musculus with 2 samples.

Results

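The regions described are DNase I peaks at the promoters of protein-coding genes whose 5' end is poor in CpG dinucleotides, in urinary bladder tissue of mice. A gene was CpG-poor when the ratio of observed to expected CpG was below 0.35 in the 1 kb on either side of its 5' end (mm10 sequence, GENCODE M21 genes). A peak was a member when its midpoint lay within 1 kb of a transcription start site (TSS) of such a gene, was not within 1 kb of a start of any protein-coding gene at or above 0.35, and overlapped a peak of the other library by at least 1 bp. On chromosomes 1 to 19 the rule gave 2803 pairs of peaks found in both libraries, matched 1 to 1 by largest overlap, of 68801 such pairs in all. The members lay at 1860 of the 8017 CpG-poor genes, and there are 20807 protein-coding genes on these chromosomes. A further 17671 shared pairs lay at promoters of CpG-rich genes and 48146 lay more than 1 kb from any protein-coding start (distal pairs).

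The tissue came from adult females of the strain B6CASTF1/J, aged 18 to 20 months, and was assayed by DNase-seq, in which an enzyme cuts DNA where nucleosomes leave it exposed. The series holds 1 group of 2 libraries, numbered by its labels as biological replicates 1 and 2, with no treatment and no contrast. Both libraries are traced to 1 strain donor record through separate tissue samples, and the labels do not say whether animals were pooled, so the spread between the libraries may be partly technical. B6CASTF1/J is a first-generation hybrid of C57BL/6J and CAST/EiJ, whereas the mm10 coordinates and sequence are of C57BL/6J, and the part of the second genome in any value was not tested. With a single group no test between conditions exists, and peaks are not replicates, so values are given for each library, with mean ± SD (n = 2) where they are combined and with no p-value.

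Mammalian promoters fall broadly into those inside CpG islands, which are used in most cells, and those in CpG-poor sequence, which more often serve genes of particular cell types. CpG-poor promoters more often carry a TATA box, bound by the TATA-binding protein a short way upstream of the start, and depend on factors that recognise particular DNA words. In the bladder the cell types are the urothelium with its uroplakin plaques, the smooth muscle of the wall, the fibroblasts of the lamina propria, vessels and resident immune cells.

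Judged by the nearest start, the name CpG-poor promoter held for most members but not for all. At 1760 members the nearest start itself lay in sequence with CpG below 0.35 (CpG-poor start), and 1456 members lay within 1 kb of the gene's 5' end. At the other 1043 members the nearest start lay in CpG-rich sequence (CpG-rich start), and 1002 of these were at a start away from the 5' end. In the 501 bp around the peak, observed over expected CpG had a median of 0.285 at CpG-poor starts, 0.741 at CpG-rich starts and 0.768 at promoters of CpG-rich genes. Over all members the median there was 0.398, and 1184 members (42.2%) were below 0.35. At CpG-poor starts 64.6% were below it, and at promoters of CpG-rich genes 6.78%. The members are therefore described by the rule, as peaks at promoters of genes with a CpG-poor 5' end. Both kinds of start are kept apart where stated, a split made after the values were seen.

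The letters just upstream of the start show what these promoters are made of. The first set is 3 members with a TATAAA word in the place of a TATA box, shown because this word was commoner at CpG-poor starts than at CpG-rich promoters. Each line gives the 100 bases before the start in mm10 (letters from RefSeq's GRCm38.p6 sequence), 5' to 3' along the gene, with the matched word in capitals. Acy3 encodes an aminoacylase, Nqo1 a quinone reductase and Psca a surface protein of epithelia.

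Acy3, chr19:3986470-3986569 (plus strand): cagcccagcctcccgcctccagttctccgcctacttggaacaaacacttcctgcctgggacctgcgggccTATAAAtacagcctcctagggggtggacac

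Nqo1, chr8:107403207-107403306 (minus strand): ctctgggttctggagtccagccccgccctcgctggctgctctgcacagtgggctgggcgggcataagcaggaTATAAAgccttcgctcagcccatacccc

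Psca, chr15:74714739-74714838 (plus strand): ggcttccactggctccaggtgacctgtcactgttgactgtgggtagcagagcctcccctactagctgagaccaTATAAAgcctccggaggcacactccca

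The first letter of TATAAA lay 28 bases before the start at Nqo1, 30 at Acy3 and 27 at Psca. The word touched a footprint, a short protected stretch inside a peak, in both libraries at Acy3 and Nqo1 and in neither at Psca. The second set holds the promoters of Tldc1 and Cyp4f13, the members with the highest signal at a CpG-poor start, and of H2-Aa, the highest among the immune marker lists. Capitals mark the CCAAT word (ATTGG on the other strand), an ETS word (ACTTCC) and the cyclic AMP response element (CRE, TGACGTCA).

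Tldc1, chr8:119778417-119778516 (minus strand): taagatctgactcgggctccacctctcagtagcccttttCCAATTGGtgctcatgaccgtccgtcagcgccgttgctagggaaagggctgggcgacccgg

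Cyp4f13, chr17:32947403-32947502 (minus strand): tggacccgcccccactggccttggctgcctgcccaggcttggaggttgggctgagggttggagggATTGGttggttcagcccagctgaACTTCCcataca

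H2-Aa, chr17:34287824-34287923 (minus strand): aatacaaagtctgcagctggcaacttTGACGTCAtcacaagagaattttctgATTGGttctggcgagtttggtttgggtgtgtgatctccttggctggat

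At H2-Aa, an MHC class II alpha chain, the CRE began 74 bases and the ATTGG 48 bases before the start, and both touched footprints in both libraries. Class II promoters are known for an X2 box that resembles a CRE and a Y box that is an inverted CCAAT. At Tldc1 the words CCAAT and ATTGG overlapped at 61 and 58 bases and touched footprints in both libraries. At Cyp4f13, a cytochrome P450, the ETS word at 12 bases touched footprints in both libraries and the ATTGG at 35 bases in neither. The third set holds 4 interferon-response genes with the interferon regulatory factor word (IRF, GAAA and GAAA with any 2 bases between), shown because 11 of the 19 interferon-response member genes carried it.

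Igtp, chr11:58199456-58199555 (plus strand): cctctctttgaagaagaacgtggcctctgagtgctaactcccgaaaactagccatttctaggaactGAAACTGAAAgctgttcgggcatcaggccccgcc

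Ifi27, chr12:103434111-103434210 (plus strand): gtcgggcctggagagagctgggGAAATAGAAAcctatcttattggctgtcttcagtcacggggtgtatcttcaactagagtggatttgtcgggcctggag

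Rtp4, chr16:23609819-23609918 (plus strand): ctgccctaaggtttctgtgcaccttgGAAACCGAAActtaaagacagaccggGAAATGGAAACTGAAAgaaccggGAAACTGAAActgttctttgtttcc

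Ifit1, chr19:34640771-34640870 (plus strand): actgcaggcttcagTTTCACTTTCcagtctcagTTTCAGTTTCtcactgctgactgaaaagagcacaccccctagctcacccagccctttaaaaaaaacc

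Rtp4 carried 4 IRF words, beginning 74, 48, 42 and 25 bases before the start, of which those at 48 and 42 overlap and touched footprints in both libraries. Ifit1 carried 2, at 86 and 67 bases, on the other strand, and both touched footprints in replicate 1 only. The single word at Ifi27, at 78 bases, touched a footprint in replicate 2 only, and that at Igtp, at 34 bases, in neither. A match is a description of the letters and does not show that a factor was bound. Some of these 10 promoters were added to the named set after their values were seen.

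Most CpG-poor genes had no peak at any start, and the share with a peak rose with CpG content. Of the 8017 CpG-poor genes, a peak stood at a start of 25.5% in replicate 1 and of 28.7% in replicate 2 (27.1% ± 2.27, SD, n = 2), and of 23.9% in both. Of the 12790 CpG-rich genes 89.8% and 91.4% did, and 88.5% in both. Over all protein-coding genes the share with a promoter peak in both libraries was 63.6%. The share in both rose from 4.96% of genes with CpG below 0.1 to 35.7% between 0.2 and 0.3, to 79.8% between 0.4 and 0.5 and to 96.9% between 0.8 and 0.9. The bin that holds the limit of 0.35, from 0.3 to 0.4, was at 55.9%.

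**Figure D1:**
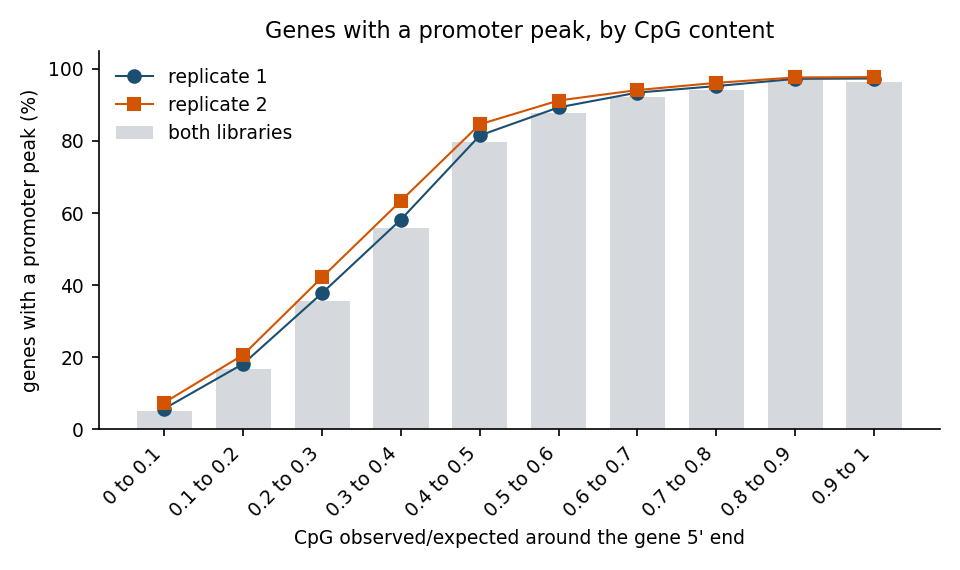
Share of protein-coding genes with a promoter peak (y axis, percent) by observed over expected CpG around the gene's 5' end (x axis, bins of 0.1), with lines for each library and grey bars for genes with a peak in both. The bars stand at 4.96% in the lowest bin and 79.8% between 0.4 and 0.5, and the limit of 0.35 falls inside the bin from 0.3 to 0.4.

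A member pair was present at 1860 CpG-poor genes, or 23.2% of them. Olfactory and vomeronasal receptor genes (Olfr and Vmn), which are expressed in sensory neurons of the nose, make up 1453 of the CpG-poor genes, and 9 of them (0.619%) had a member. Without them the share was 28.2%. Among the members' genes 1214 had 1 pair, 646 had 2 or more and 71 had 4 or more. Stox2 had the highest number with 8, followed by Dab2ip, Lzts2 and Ppp2r3d with 7 each.

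Member peaks were weaker than peaks at promoters of CpG-rich genes and stronger than distal peaks. The signal is the authors' value for each peak, and because every value was a whole multiple of a fixed step in its library it behaves as a scaled count. The sources used here do not give the scaling. The median signal of members was 1.19 in replicate 1 and 1.34 in replicate 2, against 2.07 and 2.24 at CpG-rich promoters and 0.819 and 0.981 at distal pairs. The ratio of medians, members over CpG-rich promoters, was 0.576 and 0.598 (0.587 ± 0.0158, SD, n = 2), a difference larger than the spread between the libraries. Single members ranged from 0.188 to 13 in replicate 1 and from 0.203 to 13.3 in replicate 2, so the sets overlap widely.

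The kinds of start differed in signal. At CpG-poor starts the median was 1.07 and 1.20, or 0.516 and 0.533 of that at CpG-rich promoters. At CpG-rich starts it was 1.70 and 1.81, or 0.819 and 0.807 of that at CpG-rich promoters. The quartiles of the CpG-poor starts were 0.708 and 1.72 in replicate 1 and 0.769 and 2.04 in replicate 2. The step value puts the median member at 140 and 152 counts, and the median CpG-poor start at 126 and 136, by library. Whether the counts are of reads or of cuts is not stated, and the depth of the libraries is unknown.

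**Figure D2:**
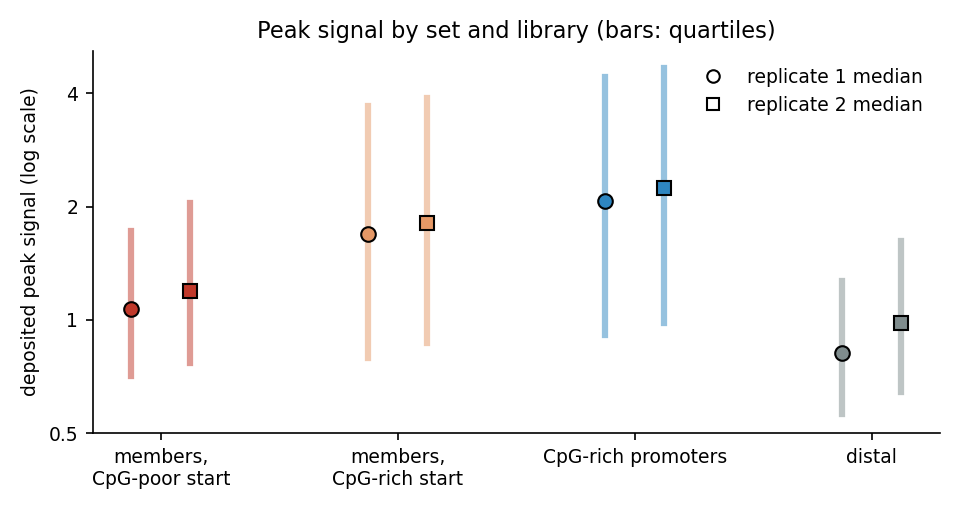
Deposited peak signal (y axis, log scale) of shared pairs at CpG-poor starts, CpG-rich starts, CpG-rich promoters and distal sites, for each library, with circles (replicate 1) and squares (replicate 2) at the median and vertical bars from the lower to the upper quartile. Medians at CpG-poor starts are 1.07 and 1.20, below the 1.70 and 1.81 of CpG-rich starts and above the 0.819 and 0.981 of distal pairs.

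Of the 15 members with the highest mean signal, 14 lay at CpG-rich starts. Glo1, a glyoxalase that detoxifies methylglyoxal, had the highest, with 13 in replicate 1 and 13.3 in replicate 2. Its peak of 200 bp lay 2 bp from a start with CpG of 0.481, whereas CpG at the gene's 5' end was 0.316. Hdac4, a class IIa histone deacetylase, had 12.2 and 10.9, and its nearest start had CpG of 0.918 against 0.245 at the 5' end. Ccnt1, cyclin T1 of the elongation factor P-TEFb, had 11.8 and 10.6. Gpx4, the peroxidase that removes lipid peroxides, had 11.4 and 10.4, Por, the reductase that feeds electrons to cytochrome P450 enzymes, 10.5 and 10.1, and Rbpj, the DNA-binding factor of Notch signalling, 10.4 and 9.77. The rest of the 15 were Ndel1, Kat6b, Tollip, Prx, Tdrd7, Xrcc6, Pef1 and Rps6ka5, with means from 10.2 to 11.2. The leading signals of the set thus came from starts in CpG-rich sequence.

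The exception was Tldc1, a TLDc domain protein, with 9.44 and 12.5 at a start with CpG of 0.333. Its peak spans 119778361 to 119778580 on chromosome 8. Among CpG-poor starts it was followed by Cyp4f13 with 8.62 and 11.2, Tef, a clock-controlled transcription factor, with 10.3 and 8.92, and Dpp3, a dipeptidyl peptidase, with 8.48 and 9.81. Neither library was higher throughout: Tldc1 and Cyp4f13 were higher in replicate 2 and Tef in replicate 1. S100a4, a calcium-binding protein of fibroblasts and macrophages, had 6.87 and 7.00. Of the CpG-poor starts with a TATAAA word before any start within 1 kb, it was the highest. Gapdh, the glycolytic enzyme, had 3.98 and 3.38 and also carried the word. Lmna, which encodes the nuclear lamins A and C, had 8.11 and 7.19 at a start just under the limit.

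The genes closest to the limit of 0.35 on each side are given as a description. Just inside, the mean signal was 1.66 at Alkbh8, 1.75 at Mfsd2b and 2.09 at Steap4. Just outside, it was 3.22 at Zfp764, 7.40 at Cirbp and 2.10 at Ly6e.

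The share of marker genes with a member differed between cell types, and each count is read against the 23.2% of all CpG-poor genes that had one, or 28.2% without Olfr and Vmn genes. The lists were chosen with earlier results of these data known, so the counts are a description. They pool both kinds of start. Of the list genes with values below, Krt7, Col1a2, Egfl7, Anpep and Alox5ap had a CpG-rich nearest start (CpG of 0.391, 0.358, 0.526, 0.425 and 0.356). Of the CpG-poor genes in each list, a member was present at 17 of 25 for fibroblast and matrix (68.0%), 19 of 30 for urothelium (63.3%), 19 of 34 for interferon response (55.9%) and 10 of 23 for endothelium and pericyte (43.5%). For smooth muscle it was 5 of 15 (33.3%), for mesothelium 2 of 6 (33.3%), for cytokines and chemokines 13 of 37 (35.1%) and for B and plasma cells 7 of 26 (26.9%). Both mesothelium members, Krt19 and Upk3b, are also on the urothelium list. The other CpG-poor mesothelium genes, Lrrn4, Msln, Muc16 and Slurp1, had no peak in either library. Myeloid genes had 10 of 45 (22.2%) and T cell genes 2 of 27 (7.41%). Of the lists for cells of other organs, kidney tubule and germ cell had 1 of 14 each (7.14%), pancreatic acinar cell 2 of 13 (15.4%), cardiomyocyte 2 of 11 (18.2%), hepatocyte 6 of 24 (25.0%) and skeletal muscle 7 of 19 (36.8%). Neuron genes had 1 of 6 (16.7%). A peak shows an accessible promoter and not expression. In bulk tissue, fewer cells of a type and less open chromatin per cell cannot be told apart.

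**Figure D3:**
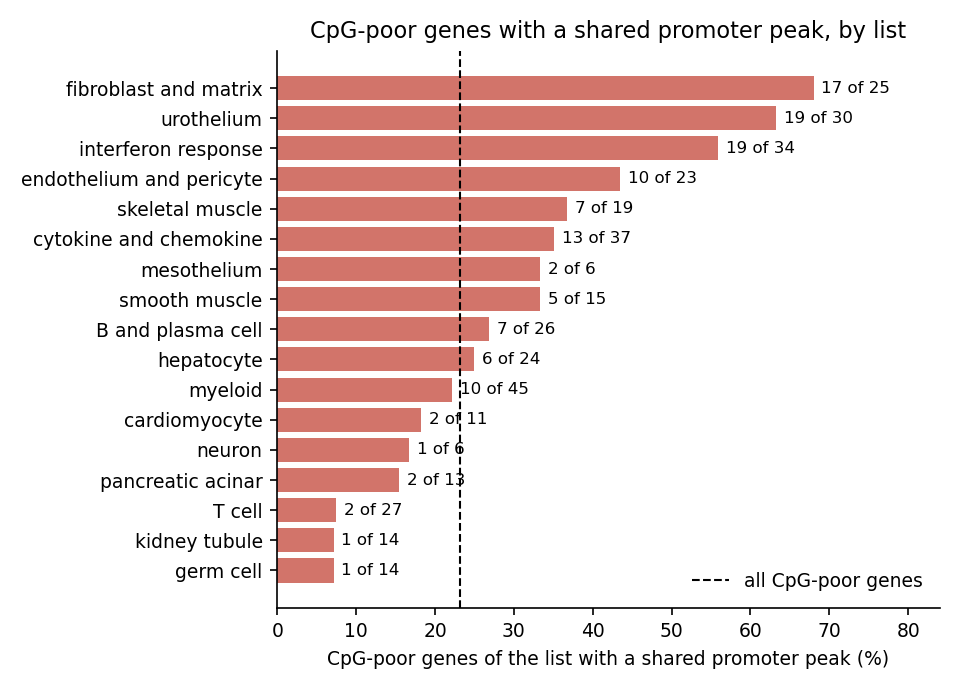
Percent of the CpG-poor genes of each marker list that have a member pair (bars, x axis from 0), with the count beside each bar and a dashed line at the 23.2% of all CpG-poor genes. Fibroblast and matrix (17 of 25) and urothelium (19 of 30) are highest, and T cell (2 of 27) is among the lowest.

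Urothelial members had the highest median signal of the lists with 5 or more members, at 1.97. For a gene with more than 1 pair, this median and the values of list genes below use its strongest pair. All 5 uroplakin genes named here, which encode the plaque proteins of the umbrella cells, had a peak in both libraries. The signal of Upk2 was 1.95 in replicate 1 and 3.92 in replicate 2, of Upk3a 2.37 and 2.25, of Upk3b 2.33 and 1.75, of Upk1b 2.10 and 1.84, and of Upk1a 1.53 and 2.23. Upk2 was higher in replicate 2, Upk3b in replicate 1, and Upk3a was close in both. The pair used for Upk2 was 1 of 3 and lay 640 bp downstream of its nearest start. Krt7, a keratin of simple and transitional epithelia, had 3.44 and 2.92, Elf3, an epithelial ETS factor, 3.27 and 3.05, and Ly6d 2.63 and 2.84. Krt5, the keratin of basal cells, was lower with 1.39 and 1.18. Among genes known from stratified epithelia, Krt15 had 2.24 and 2.04, Ivl, involucrin, 1.61 and 1.92, and Sprr1a 1.22 and 1.18, whereas Krt13, Krt14, Krt17, Krt6a, Dsg3 and Sprr2a1 had no peak in either library. Cyp2f2 and Gsdmc2 had none either. Trp63, the basal cell regulator, had a peak in replicate 1 only and Krt4 in replicate 2 only.

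Matrix genes were led by Col1a1, the alpha 1 chain of type I collagen, with 3.27 and 4.52 at a site 962 bp inside the gene, and by Eln, elastin, with 3.51 and 3.45. Sparc had 1.97 and 2.14, Col3a1 1.96 and 1.80, Col1a2 2.07 and 1.25, and the proteoglycan gene Dcn 1.31 and 0.928. Postn was near the low end with 0.571 and 0.389. Aspn, Ly6a, Mfap5 and Serpinf1 had no peak in either library. In smooth muscle, Myh11, the smooth muscle myosin heavy chain, had 1.18 and 1.97, Cald1, caldesmon, 0.964 and 1.27, and Cnn1, calponin, 0.742 and 0.619. Actg2, Lmod1 and Tagln had a peak in replicate 1 only, and Acta2 had peaks in both libraries that were not a 1 to 1 member pair. Of the pericyte genes, Rgs5 had 1.17 and 0.954, Pdgfrb 1.01 and 1.11 and Anpep 0.674 and 0.689, and Higd1b and Cox4i2 had no promoter peak in either library. Of the endothelial genes, Eng had 0.938 and 0.839, Egfl7 0.784 and 0.848, Cdh5 0.529 and 0.486 and Tie1 0.426 and 0.433, and Pecam1, Vwf and Emcn had none, so the levels of both kinds of gene overlapped.

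Among secreted signals the inflammatory genes Il6 and Ccl2 led. Il6, the acute-phase cytokine, had 3.16 and 3.49 at a peak 35 bp upstream of its start, and Ccl2, the monocyte chemoattractant, had 1.98 and 2.12. Ccl7 had 1.13 and 1.34 and Tnf 0.657 and 0.954. No peak was listed in either library at 22 of the 37 genes, among them Il1b, Il10, Ifng, Csf2, Ccl3 and Ccl4. The highest immune marker gene was H2-Aa. It had 2.79 and 5.39, and H2-Ab1, the matching beta chain, 1.02 and 2.47, both higher in replicate 2. Other genes of antigen presentation were lower, with 0.614 and 0.884 at Cd74 and 0.631 and 0.592 at H2-DMb2, and Ciita and H2-Ob had a peak in a single library. The highest myeloid members were Coro1a with 1.17 and 1.81 and Cd68 with 1.16 and 1.07. Mean signal of the 10 myeloid members ranged from 0.382 to 1.49, with a median of 0.545. The T cell genes Cd28 and Cd3d had 0.452 and 0.574, and 0.35 and 0.389, which overlapped the lower myeloid values. Neither library had a peak at 28 of the 45 myeloid genes, among them Csf1r, Adgre1, Itgam and Ptprc, or at 24 of the 27 T cell genes. Among all CpG-poor genes, 5608 of 8017 had no peak in either library, and without Olfr and Vmn genes 4180 of 6564 had none. The cytokine and myeloid shares with no peak were below both of these, and the T cell share was above both. Of myeloid genes with a peak in a single library, C1qb, Pf4, S100a8, Spi1 and Tyrobp had it in replicate 2, the longer list, and Laptm5 and Lyz2 in replicate 1.

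All 19 interferon-response members lay at CpG-poor starts. Gbp3 and Igtp, both GTPases of cell-autonomous defence, had 2.46 and 3.04, and 2.29 and 2.94. Ifi27 had 2.37 in both libraries, Xaf1 2.21 and 2.08, and Irf7, the factor that amplifies the interferon response, 1.83 and 2.15. Rsad2, the antiviral enzyme viperin, had 0.844 and 1.47, Rtp4 0.810 and 0.946 and Ifit1 0.469 and 0.398. Neither library had a peak at 11 of the 34 genes, among them Isg15, Mx1, Oas1a and Iigp1. The share with no peak was thus below that of all CpG-poor genes. The IRF word stood in the 150 bases before the start, on either strand, at 11 of the 19 members (57.9%) and at 5 of the 15 CpG-poor genes of the list without a member (33.3%). For members this was the start nearest the strongest peak, and for the other genes it was the gene's 5' end. The starts were thus chosen differently, and these shares are not directly comparable. The word stood before 3.02% of the 1554 starts of members at CpG-poor starts, and before 1.74% of all 52092 protein-coding starts.

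Words for general promoter factors and for tissue factors were both found at CpG-poor starts, at shares between those of CpG-rich promoters and distal pairs for several of them. Of 24 words searched in the 150 bp around the peak's midpoint, on either strand, the AP-1 word TGANTCA stood in 10.5% of CpG-poor starts, 3.19% of CpG-rich promoters and 17.0% of distal pairs. In sequence 500 bp away from the CpG-poor starts it was at 4.52%, and in the 150 bp before all starts at 3.46%. The KLF/SP word GGGNGGGG stood in 21.1% of CpG-poor starts, 33.6% of CpG-rich starts, 32.8% of CpG-rich promoters and 10.6% of distal pairs, and before 28.3% of all starts. The NRF1 word GCGCATGC, which holds CpG, stood in 0.682%, 2.78%, 3.23% and 0.625% of the same sets. The GATA word AGATAA was at 4.38% of CpG-poor starts, below its own flanks at 6.28%. The CTCF motif was at 3.12% of CpG-poor starts, 0.170% of their flanks and 8.18% of distal pairs. The ETS word GGAAGT was at 16.1% of CpG-poor starts and 9.91% of their flanks, the CCAAT word at 20.3% and 16.7%, the C/EBP word TTGCNNAA at 8.52% and 5.94%, the E-box CACGTG at 3.81% and 2.24%, and the FOX word TGTTTAC at 2.44% and 1.59%. The PU.1 word GAGGAAGT was at 2.33% and 1.31%, the IRF word at 2.67% and 1.99%, the CRE at 1.08% and 0.114%, the GRHL word AACCNGTT at 1.99% and 1.34%, STAT (TTCCNGGAA) at 1.36% and 0.540%, and the NF-kB motif at 0.568% and 0.227%. Words commoner in the flanks than at the peak were RUNX (TGTGGT, 9.43% and 11.1%), TEAD (GGAATG, 8.01% and 8.98%), the homeobox word TAATTA (1.42% and 2.70%), TATAAA at any position and strand (4.32% and 7.39%), the MEF2 motif (0.568% and 1.88%) and the CArG box (0.682% and 0.739%). The longer PPAR and RXR and NFI motifs were found at 5 and 2 CpG-poor starts. Before all starts the shares ranged from 0.0115% for NFI to 28.3% for KLF/SP, with ETS at 14.4%, CCAAT at 23.7%, C/EBP at 4.71%, IRF at 1.74% and TATAAA at 6.37%. The ETS and PU.1 words overlap, as do several others, so the shares are not independent.

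The words differed in how often they touched a footprint. Footprints covered 11.7% of the bases of CpG-poor starts in replicate 1 and 13.5% in replicate 2. CRE words there touched a footprint at 77.8% of 18 matches and 80.0% of 20, CTCF matches at 66.1% and 90.0%, NRF1 words at 62.5% and 56.2%, KLF/SP words at 30.9% and 38.5%, and AP-1 words at 9.39% and 13.6%. A word touches a footprint more easily the longer it is, so these shares are not on 1 scale with the share of bases.

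TATAAA was searched with its first letter 20 to 40 bases upstream of any start within 1 kb of the peak, on the gene's strand. It was found at 72 members (2.57%). These were 57 members at CpG-poor starts (3.24%) and 15 at CpG-rich starts (1.44%), beside 238 CpG-rich promoter pairs (1.35%). Before the nearest start alone it was at 50 (2.84%), 10 (0.959%) and 157 (0.888%) of the same sets. At 70 to 90 bases, farther upstream than a TATA box lies, the shares were 0.568% at CpG-poor starts, 0.384% at CpG-rich starts and 0.289% at CpG-rich promoters. Counted by gene, the word was at 80 of the 1860 member genes (4.30%), at 400 of the 5608 CpG-poor genes with no peak in either library (7.13%) and at 218 of 12790 CpG-rich genes (1.70%). CpG-poor genes with no bladder peak thus carried it at a higher share than those with a member. At 70 to 90 bases the shares by gene were 1.02%, 1.91% and 0.602% in the same order. The genes with no peak were thus also higher at 70 to 90 bases. Without Olfr and Vmn genes, those with no peak were at 8.06% at 20 to 40 bases and 1.72% at 70 to 90. At 120 to 140 bases they were at 1.10%, against 1.18% of member genes. At 220 to 240 bases the shares were 1.36% and 1.34%. With Olfr and Vmn genes kept, genes with no peak were at 1.57% and 2.18% in these 2 windows. The median signal of CpG-poor starts with the word was 0.998 in replicate 1 and 1.11 in replicate 2, against 1.07 and 1.20 without it. Where the word lay inside the peak, at 27 starts, it touched a footprint at 9 (33.3%) in replicate 1 and 5 (18.5%) in replicate 2. The same distance at CpG-poor starts without the word gave 18.7% and 22.9%, so the libraries disagreed in direction.

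**Figure D4:**
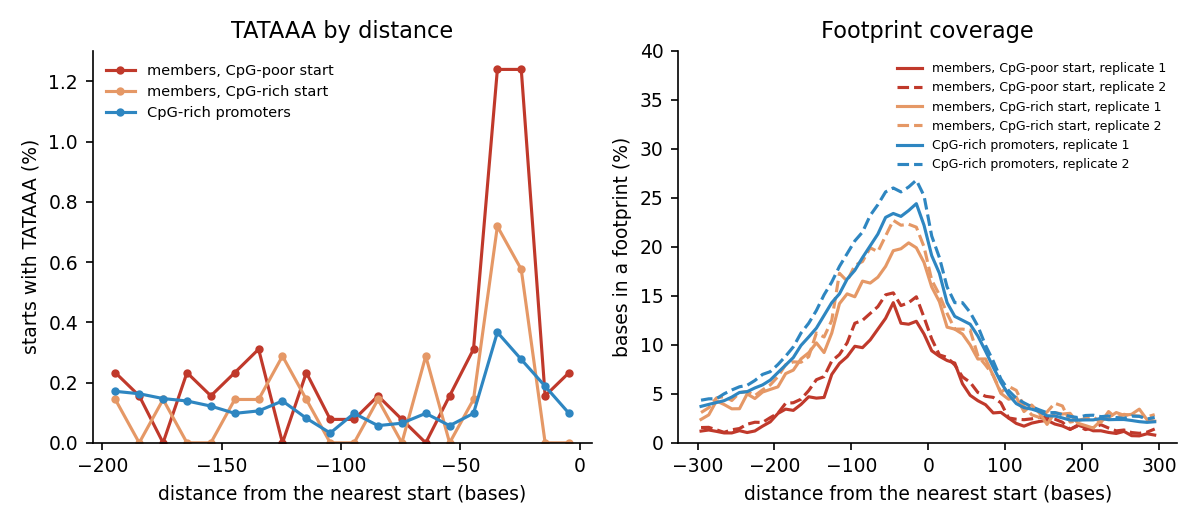
Left, percent of starts with TATAAA beginning in each 10-base bin (x axis, bases from the start) for CpG-poor starts, CpG-rich starts and CpG-rich promoters; right, percent of bases under a footprint by distance, solid for replicate 1 and dashed for replicate 2. TATAAA reaches 1.24% in the bins from 20 to 39 bases upstream at CpG-poor starts, and footprint coverage peaks at 14.3% and 15.3% at CpG-poor starts, against 24.4% and 26.8% at CpG-rich promoters.

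The share of members with a footprint was close to that of all shared pairs, and at matched middle signal it was higher at CpG-poor starts than at CpG-rich starts and CpG-rich promoters, but not than at distal pairs. A footprint in both libraries was present at 2217 members (79.1%), beside 75.9% of all shared pairs, 78.0% of CpG-rich promoters and 75.1% of distal pairs, and 169 members had none in either. Footprint calls rise with signal. In the middle of 5 signal classes of equal size over all shared pairs, 86.7% of CpG-poor starts had a footprint in both, beside 64.6% of CpG-rich starts, 61.3% of CpG-rich promoters and 87.7% of distal pairs. In each library CpG-poor starts (92.8% and 92.8%) and distal pairs (91.9% and 94.6%) were above CpG-rich starts (69.3% and 74.8%) and CpG-rich promoters (70.3% and 73.6%), while the order within each of these pairs of sets differed between the libraries. In the top class all 4 sets were between 99.1% and 99.7%. By this measure CpG-poor starts lay close to distal pairs, and CpG-rich starts close to CpG-rich promoters. Per 100 bp of peak the CpG-poor starts held 1.03 and 1.09 footprints and the CpG-rich promoters 1.21 and 1.24; these last values are not matched for signal.

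**Figure D5:**
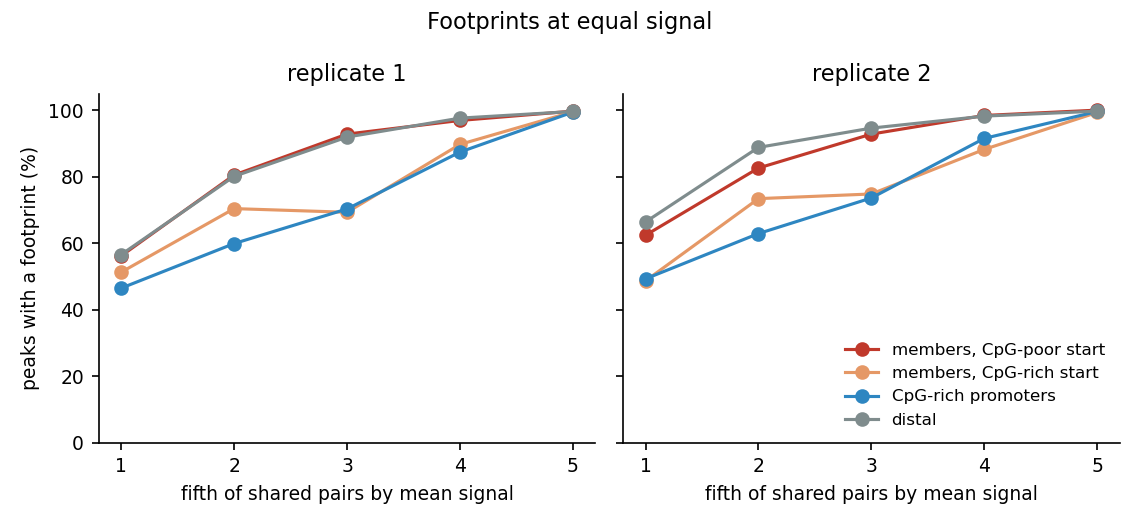
Percent of shared pairs with a footprint (y axis) by class of mean signal from lowest to highest (x axis, 5 equal classes over all shared pairs), 1 panel for each library, for CpG-poor starts, CpG-rich starts, CpG-rich promoters and distal pairs. In the middle class CpG-poor starts (92.8% in each library) and distal pairs (91.9% and 94.6%) lie above CpG-rich starts (69.3% and 74.8%) and CpG-rich promoters (70.3% and 73.6%), and in the top class the sets meet.

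The member with the most footprints was Traf3ip2, an adaptor of interleukin 17 signalling, with 12 in replicate 1 and 10 in replicate 2. Its peak was also the widest, at 960 and 900 bp, although its signal was only 1.72 and 2.24. Macf1 had 10 and 11, Impact 10 and 11, and Iffo2 9 and 11. The other wide members were Ppp2r3d (1134 and 400 bp), Il15 (920 and 580 bp) and Mdga1 (740 and 740 bp). The median member was 220 bp wide in both libraries. The rule keeps members within 1 kb of a start. Their median distance was 101 bp, 64.5% lay within 200 bp and 59.5% lay upstream. CpG-rich promoter pairs were much the same, at 97 bp, 63.8% and 59.0%. At least 50% of the peak was repeat-masked sequence at 16 members (0.571%), beside 1.78% of all shared pairs and 0.379% of CpG-rich promoters. The share overlapping the authors' shorter list in both libraries was 71.4% (2001 members), beside 63.5% of all shared pairs, 67.8% at CpG-poor starts and 81.9% at CpG-rich promoters.

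Most rule-passing peaks were in both libraries, and those that were not were weak. By position 3310 peaks of replicate 1 and 3923 of replicate 2 qualified, of 82472 and 109240 peaks on chromosomes 1 to 19. Of the rule-passing peaks 87.3% and 74.0% overlapped a peak of the other library. The shares were 89.6% and 79.5% for peaks at CpG-rich promoters and 83.0% and 59.5% for distal peaks. For rule-passing peaks of replicate 1 the share rose from 58.2% in the lowest signal class to 99.8% in the highest. For replicate 2 it rose from 26.2% to 99.5%. The 421 and 1021 rule-passing peaks of a single library had median signals of 0.520 and 0.495. Single-library peaks were about as weak at CpG-rich promoters (0.512 and 0.513) and at distal sites (0.452 and 0.460).

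Most members were close in strength in both libraries. Replicate 2 was higher over all shared pairs by a median of 1.10-fold, and ratios were centred on it. After centring 85.0% of members (2382) were within 1.5-fold, beside 77.5% of all pairs, and the SD of the log2 ratio was 0.435 at CpG-poor starts, 0.342 at CpG-rich starts, 0.333 at CpG-rich promoters and 0.540 at distal pairs. At least 2-fold higher in replicate 2 were 37 members (1.32%), beside 4.59% of all pairs, and at least 2-fold lower were 10 (0.357%), beside 0.657%. The largest ratio was at Itgal, the alpha chain of the leukocyte integrin LFA-1, with 0.520 in replicate 1 and 2.04 in replicate 2. It was followed by Gnb5 (0.716 and 2.39), Tmprss5 (0.529 and 1.52), Blcap (0.657 and 1.85) and Hsd17b6 (1.02 and 2.76). Those highest in replicate 1 were Bcas1 (1.11 and 0.548), Psca (1.85 and 0.972), Nlrp1b (0.452 and 0.239), 4931408C20Rik (0.631 and 0.336) and Alox5ap (0.597 and 0.318). Psca and the strongest pair of Upk2, 640 bp downstream of its start, both at epithelial genes, moved in opposite directions. Whether cell makeup moved with these differences was not tested.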

How the data were processed

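DNase-seq was run on 2 bladder libraries. The deposited files, per the labels on mm10, list peaks with a signal value for each, footprints, and stretches with a cut-rate p-value adjusted as a false discovery rate, listed below 0.05. For the authors' aligner, peak caller and signal scaling the record is: not given in the sources used here. The depth is unknown. The footprint files carry the same deposited score, 0.01, on every line, so only positions were used. Every deposited signal was a whole multiple of 0.008527 (replicate 1) or 0.008837 (replicate 2), within 0.02 of a whole count.

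From these, peaks of the longer list were placed against GENCODE M21 starts (52092 on chromosomes 1 to 19), paired by overlap of at least 1 bp, and compared as medians and shares per library. A footprint belongs to a peak that holds its midpoint. Repeats and letters are from the GRCm38.p6 reference, the assembly of mm10. The members, gene lists and words were chosen with earlier results of these data known. Named genes are the 15 highest signals, the 5 highest and 5 lowest replicate ratios, the leading genes of each list, the 4 with most footprints, the 4 widest and the 3 nearest the CpG limit on each side. Genes added after their values were seen are the leading CpG-poor starts, those with TATAAA or IRF words, and further list members. The pairing, CpG, TATAAA and footprint steps were tested on simulated data. Python 3.11.15, pandas 2.3.3 and numpy 2.4.6 were used. Alternatives were other distances, CpG limits, lists, filters and scalings.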

Additional observations from a re-analysis of the deposited data

How the results depend on the processing

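The values below were recomputed with 1 choice changed at a time. The 2803 members became 1509 with the gene's 5' end as the only start, 1675 with the strongest 42295 peaks of each library, and 1760 with CpG-poor starts only, an alternative chosen after seeing the data. The log2 ratio of median signal over CpG-rich promoters, -0.77, stayed below 0 in every alternative run for it (listed here where it moved). It was -0.99 within 500 bp of a start, -0.72 with a CpG limit of 0.40, -1.07 with 5' ends only, -0.68 with the shorter list, -0.66 with the strongest peaks, -0.66 with peaks of exactly 1 gene and -0.93 at CpG-poor starts, and from -0.68 to -0.55 with a library left out. The share with a footprint in both libraries, 79.1%, was 81.0% within 500 bp, 87.9% with the shorter list, 94.0% with the strongest peaks and 80.3% at CpG-poor starts. With a library left out the measure differs. It is then the share of all rule-passing peaks with a footprint in the library kept, and it was from 78.5% to 80.4%. Over the member pairs the share in a single library was 85.9% and 87.2%. The share of CpG-poor genes with a peak in both, 23.9%, was 20.7% and 27.3% with limits of 0.30 and 0.40, 16.1% with 5' ends only, 19.3% with the shorter list and 16.6% with the strongest peaks, and from 25.5% to 28.7% in a single library. The TATAAA share, 2.57%, was 2.44% within 500 bp, 2.81% and 2.27% with limits of 0.30 and 0.40, 2.68% with CpG over 500 bp, 2.85% with 5' ends only, 2.67% with genes of any biotype, 2.34% with the shorter list, 2.39% with the strongest peaks, 3.35% with TATAWA and 3.24% at CpG-poor starts, and from 2.50% to 2.57% with a library left out. The centred log2 ratio of the replicates, -0.051, was -0.026 with 5' ends only, -0.12 with quantile normalization and -0.024 at CpG-poor starts, and turned to 0.094 with no centring, which leaves in the shift of all pairs. The cause of the other changes was not tested. The other 43 alternative values stayed within the limits used, which were 1.5 times for the number of peaks, 1 SD between the libraries for the shares and the signal ratio, and the interval of the median for the replicate ratio. No paired analysis was possible because there is a single group with no comparison. Unknown depth limits what absence of a peak means: a peak missing from a library was not detected at its depth.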

Other observations

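Gene families sorted by symbol gave shares of CpG-poor genes with a member that ran from 0 to over the 23.2% of all CpG-poor genes. Zinc finger genes of the Zfp series had a member at 59 of 102 (57.8%), and genes of the interferon-inducible Ifi series at 15 of 31 (48.4%). The H2- genes of the major histocompatibility complex had 7 of 21 (33.3%), solute carriers 35 of 127 (27.6%), serpins 12 of 58 (20.7%), keratins 8 of 43 (18.6%) and cytochrome P450 genes 13 of 87 (14.9%). Keratin-associated proteins of hair had 1 of 55, beta-defensins 0 of 42 and Klr receptors of natural killer cells 0 of 25. Several of these families hold near-identical copies, and how reads that map to more than 1 place were treated is not stated, so their counts are uncertain.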
